A study of Mus musculus with 14 samples.

Results

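The lateral plate and limb mesoderm factors were 10 transcription factor genes, namely the T-box genes Tbx2, Tbx4, Tbx5, Tbx15, Tbx18 and Tbx20, the bHLH genes Hand1 and Hand2, and the paired-related homeobox genes Prrx1 and Prrx2. They were chosen by symbol, with earlier results of these data known, and all 10 were found among the 16181 genes of the deposited CPM table. PolyA RNA was sequenced from mouse embryonic stem cells and from the embryoid bodies (EBs) they formed. A line with a stable short hairpin RNA against Dis3l2, an exoribonuclease that degrades uridylated RNAs, was compared with an isogenic line with a hairpin against LacZ, a bacterial gene that mouse cells lack. Both lines carry an Osr1-GFP reporter, per the study. Groups are written shLacZ and shDis3l2, with d0 for undifferentiated cells in LIF/2i and every second day up to d12 for spontaneous differentiation in serum after removal of LIF/2i, in EBs begun as hanging drops. Each line and day was 1 library, 14 in all, each line is a single line, and the number of clones is not given in the sources used here. No difference between the lines can therefore be tested, and each value describes these libraries.

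T-box factors bind DNA through a shared domain, HAND proteins are basic helix-loop-helix factors that pair with E proteins, and PRRX proteins are homeodomain factors. The lateral plate is the mesoderm beside the somites and intermediate mesoderm that gives rise to the heart, the body wall, the limb buds and the smooth muscle of the gut. Tbx5 marks the forelimb field and the heart, Tbx4 the hindlimb field, the allantois and the lung mesenchyme, and Tbx20 the cardiac mesoderm. Hand1 and Hand2 act in the heart, the lateral plate and, for Hand1, extraembryonic mesoderm and trophoblast, and Prrx1 and Prrx2 act in limb bud and craniofacial mesenchyme.

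Start sites of 6 of the 10 genes had an entry in the RefSeq promoter set (GRCm38.p6), Hand2, Prrx1, Prrx2, Tbx4, Tbx18 and Tbx20. Tbx2, Tbx5, Tbx15 and Hand1 had none. The bases before the start are shown for 1 gene of each family, chosen because each stretch holds a motif that was searched for. They are Hand2 (chr8:57320733-57320982, plus strand), Prrx1 (chr1:163313711-163313900, minus strand, the 190 bases outside annotated exons) and Tbx4 (chr11:85896515-85896764, plus strand, before a start site inside the gene), each written 5′ to 3′ with motif matches in capitals.
Hand2: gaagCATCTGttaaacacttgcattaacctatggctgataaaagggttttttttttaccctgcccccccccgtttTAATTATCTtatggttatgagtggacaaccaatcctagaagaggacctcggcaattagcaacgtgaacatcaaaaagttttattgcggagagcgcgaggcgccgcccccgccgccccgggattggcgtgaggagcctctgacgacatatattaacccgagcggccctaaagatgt
Prrx1: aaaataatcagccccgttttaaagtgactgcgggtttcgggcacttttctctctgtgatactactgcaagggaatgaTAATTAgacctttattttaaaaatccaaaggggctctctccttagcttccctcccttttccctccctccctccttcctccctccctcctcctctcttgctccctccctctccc
Tbx4: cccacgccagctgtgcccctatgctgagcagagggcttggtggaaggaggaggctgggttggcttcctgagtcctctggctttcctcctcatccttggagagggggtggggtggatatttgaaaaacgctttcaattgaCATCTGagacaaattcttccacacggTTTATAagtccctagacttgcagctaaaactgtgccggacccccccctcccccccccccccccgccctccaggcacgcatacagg
Motifs were searched on both strands in the 250 bases before each of 32851 start sites. The homeodomain site TAATTA was found before Prrx1, 173 bases from the start, and before Hand2, 175 bases from the start, and in 4.84% of all stretches. The E-box CATCTG was found before Hand2 (246 bases), Tbx4 (111 bases) and Tbx18 (168 bases, read as CAGATG), and in 14.44% of all stretches. The GATA site AGATAA, read as TTATCT, stood 172 bases before Hand2, where its letters overlap TAATTA, and in 9.99% of all stretches. The TATA box letters TATAAA matched before Tbx4 on the opposite strand only, as TTTATA 85 bases from the start. They matched on either strand in 12.37% of all stretches, and the Tbx4 match is one of letters, not a mapped TATA box. The T-box half-site AGGTGTG and its core AGGTGT, which lies within it, were found before none of the 6 genes and in 5.1% and 11.83% of all stretches. Of the Hand2 stretch, 127 bases lie inside Hand2os1, a noncoding gene on the opposite strand, and 123 bases lie between the 2 genes.

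Between 7178712 reads (shLacZ d4) and 39888099 reads (shLacZ d0) were counted on genes per library, and the 2 libraries of a day differed in depth by up to 2.88 times. Pluripotent-like markers, among them Pou5f1 and Nanog, summed at d0 to 4418 CPM in shLacZ and 3457 CPM in shDis3l2, and to 74.6 to 1576 CPM in the EB libraries. A level is given as CPM, the reads of a gene scaled to all reads counted in the library, and 3 counts, the floor, correspond to 0.0752 to 0.418 CPM. A fold is the CPM in shDis3l2 over that in shLacZ on the same day with a 95% Clopper-Pearson interval, which covers counting error only and no difference between cultures. Dis3l2 itself held 13.7% of the shLacZ level on d0, 28.1% on d2, 32.1% on d4 and 55.2% on d6, but 97.1% (83.7 to 113) on d8, 94.98% (78.8 to 115) on d10 and 75.4% (60.9 to 93.4) on d12. Dis3l2 was thus below shLacZ beyond counting error up to d6 and at d12, and not at d8 and d10.

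From d6 onward 9 of the 10 factors were higher in shDis3l2 than in shLacZ beyond counting error on at least 3 of the 4 days, Tbx18 being the exception. Up to d4 the lines were alike or shLacZ was higher, except for Tbx18 at d0. A gene was counted as higher or lower on a day where it differed at least 3-fold in that direction and reached a CPM of 1 in either library of the day. None of the 10 was higher or lower by this rule at d0 (background of all genes 0.592% higher and 2.36% lower), d2 (0.114% and 0.144%) or d4 (0.362% and 1.68%). At d6, 4 were higher (Tbx2, Tbx4, Tbx5 and Tbx20), where 2.73% of all genes were higher and 4.26% lower. At d8, 7 were higher (5.49% of all genes, 3.76% lower), at d10 8 were higher (8.62%, 3.15% lower) and at d12 5 were higher (8.17%, 1.42% lower), and none was lower on any day. The genes were chosen with these differences known, so the counts describe the choice as well as the lines.

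**Figure D1:**
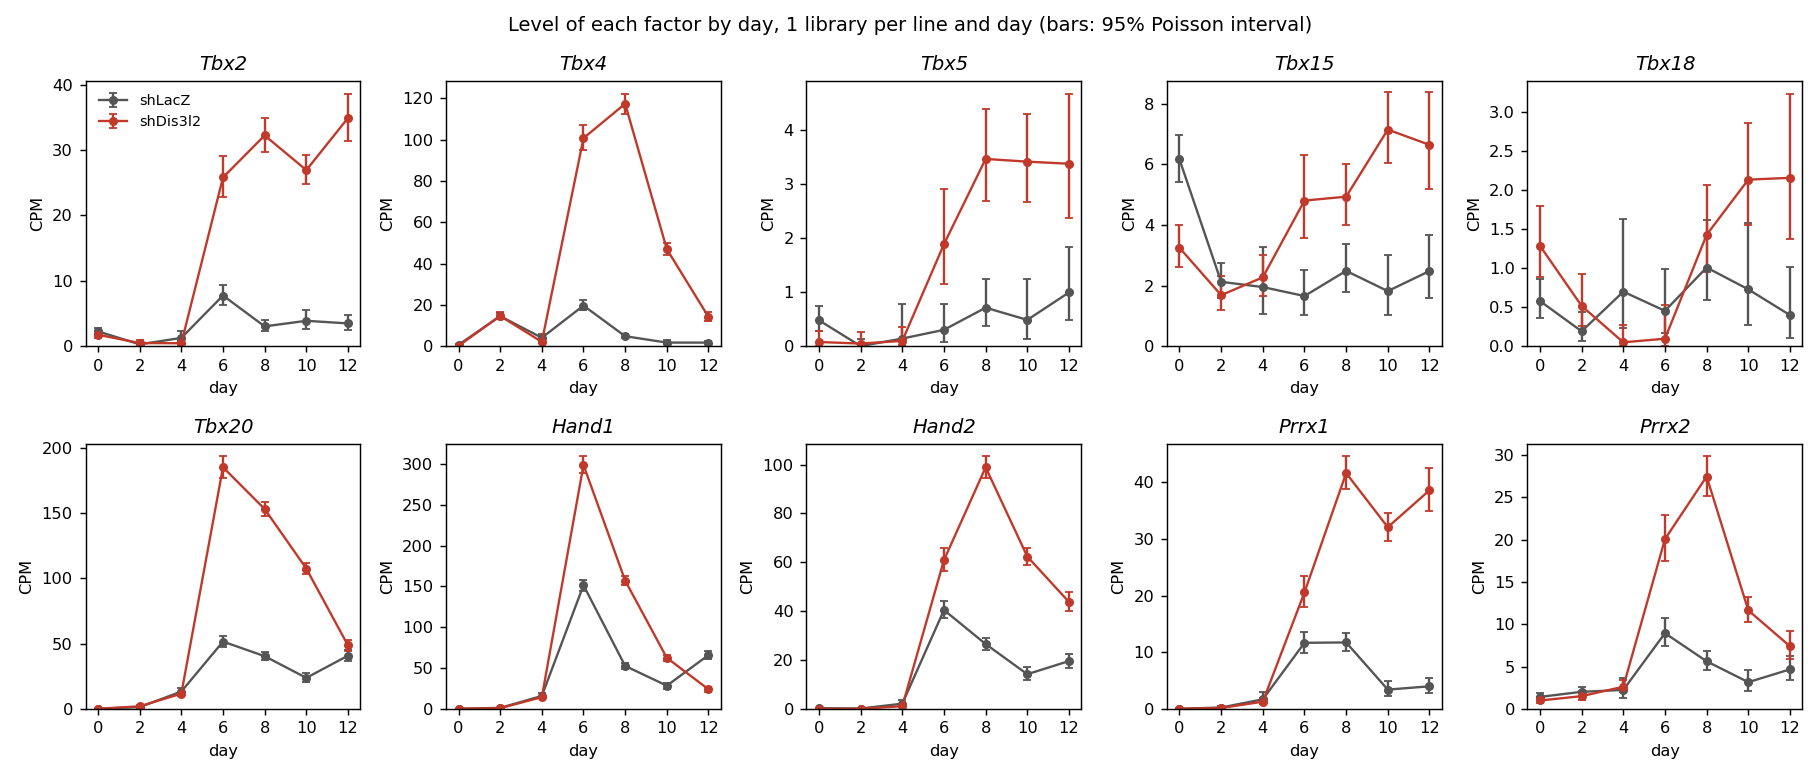
Level of each factor in CPM (vertical axis, from 0) by day of differentiation (horizontal axis) in shLacZ (gray) and shDis3l2 (red), 1 library per point, with 95% Poisson intervals. The lines lie together up to d4 for most genes, and from d8 onward the shDis3l2 points of Tbx2, Tbx4, Tbx5, Tbx15, Hand2 and Prrx1 lie above the shLacZ points, while Hand1 crosses at d12 (65.9 in shLacZ, 23.9 in shDis3l2).

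Tbx2, a repressor that acts in the atrioventricular canal and the limb, was at 2.26, 0.265, 1.25, 7.74, 3.02, 3.87 and 3.47 CPM in shLacZ from d0 to d12. In shDis3l2 it was at 1.74, 0.467, 0.435, 25.8, 32.3, 26.9 and 34.9 CPM. At d4 shLacZ was the higher, with a fold of 0.347 (0.122 to 0.986) from 9 reads in each library. From d6 the order was reversed, and in shDis3l2 the level stayed between 25.8 and 34.9 CPM while it fell back in shLacZ. The fold was 3.34 (95% interval 2.65 to 4.23) on d6, 10.7 (8.03 to 14.5) on d8, 6.96 (4.87 to 10.3) on d10 and 10.1 (7.11 to 14.7) on d12.

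Tbx4, the gene of the hindlimb field and allantois, was at 0.602, 14.5, 4.04, 19.6, 4.79, 1.69 and 1.69 CPM in shLacZ. The shDis3l2 libraries held 0.0755, 14.6, 2.03, 101, 117, 47.0 and 14.1 CPM. A first maximum at d2 was equal in the lines, with a fold of 1.01 (0.865 to 1.17), and the second at d6 to d8 was not. Before and after the first maximum shLacZ was the higher, with folds of 0.126 (0.0144 to 0.506) on d0 and 0.502 (0.306 to 0.836) on d4. Folds of 5.14 (4.48 to 5.90) on d6, 24.5 (19.6 to 31.0) on d8, 27.7 (16.4 to 50.9) on d10 and 8.39 (5.07 to 14.8) on d12 followed, and the d8 and d10 values were the 2 highest of all 40 member and day values from d6 to d12. Tbx2 and Tbx4 are neighbors on chromosome 11, on the same strand and 44473 bases apart.

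Tbx5, of the forelimb field and heart, stayed low, at 0.476, 0, 0.139, 0.301, 0.710, 0.484 and 0.992 CPM in shLacZ. Its levels in shDis3l2 were 0.0755, 0.0467, 0.0966, 1.89, 3.46, 3.41 and 3.37 CPM. The shLacZ values from d6 onward rest on 4 to 12 reads per library, so the folds of 6.27 (2.10 to 25.2) on d6, 4.87 (2.62 to 9.89) on d8, 7.04 (2.63 to 26.5) on d10 and 3.40 (1.65 to 7.68) on d12 have wide intervals, all above 1. At d2 and d4 both libraries held 3 counts or fewer and no fold is given.

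Tbx20, of cardiac mesoderm, was at 0.0501, 1.29, 13.2, 51.6, 40.4, 23.7 and 40.8 CPM in shLacZ. The values for shDis3l2 were 0, 1.92, 11.6, 185, 153, 108 and 48.6 CPM. The lines were alike at d4, with a fold of 0.876 (0.688 to 1.12), and close again at d12. In between the fold was 3.59 (3.29 to 3.93) on d6, 3.80 (3.49 to 4.13) on d8 and 4.53 (3.92 to 5.27) on d10, and at d12 it was 1.19 (1.05 to 1.36).

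Tbx15, which acts in limb and skin mesenchyme, was highest in shLacZ at d0, with 6.17, 2.12, 1.95, 1.65, 2.48, 1.82 and 2.48 CPM by day. For shDis3l2 they were 3.25, 1.68, 2.27, 4.81, 4.94, 7.15 and 6.65 CPM. Its fold was 0.527 (0.407 to 0.676) on d0 and lay between 1.99 and 3.94 from d6 to d12, past 3-fold at d10 alone. The order of the lines at d12 was thus the opposite of that at d0, when shLacZ was the higher.

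Tbx18, of epicardium, sinus horn and somites, was near the detection floor, at 0.577, 0.190, 0.697, 0.451, 1.01, 0.726 and 0.397 CPM in shLacZ. The shDis3l2 series ran through 1.28, 0.514, 0.0483, 0.0942, 1.42, 2.13 and 2.15 CPM. It was the only factor with a fold below 1 at d6, 0.209 (0.00454 to 1.72), from 6 reads in shLacZ and 1 in shDis3l2, a difference not detectable at this depth. At d4 its fold was 0.0694 (0.00147 to 0.620), from 5 reads and 1. At d10 the fold was 2.93 (1.25 to 8.42) and at d12 it was 5.43 (1.85 to 21.6).

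Hand1, of extraembryonic mesoderm, trophoblast and heart, was at 0.0752, 1.10, 15.7, 151, 52.5, 28.3 and 65.9 CPM in shLacZ. In shDis3l2 it was at 0.0755, 0.748, 14.3, 299, 157, 62.5 and 23.9 CPM. Both lines peaked at d6, and from there shDis3l2 fell on every day, to 7.99% of its peak at d12, while shLacZ rose again between d10 and d12. The fold of 1.97 (1.87 to 2.09) on d6, 2.99 (2.78 to 3.23) on d8 and 2.21 (1.92 to 2.55) on d10 gave way to 0.363 (0.313 to 0.420) on d12. That d12 value was the only one of the 40 from d6 to d12 whose interval lay below 1.

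Hand2, of lateral plate, heart and posterior limb bud, was at 0.251, 0.114, 2.09, 40.4, 26.5, 14.2 and 19.5 CPM in shLacZ. Its shDis3l2 values were 0, 0, 1.06, 60.9, 98.9, 62.3 and 43.7 CPM. It peaked later in shDis3l2, at d8, than in shLacZ, at d6. The fold was 1.51 (1.34 to 1.69) on d6, 3.73 (3.36 to 4.14) on d8, 4.40 (3.64 to 5.36) on d10 and 2.24 (1.89 to 2.66) on d12. The 2 HAND genes thus differed at d12, where Hand1 was lower and Hand2 higher in shDis3l2. Genes of chromosome 8, where Hand2 lies, had a median log2 fold between -0.37 and -0.28 from d2 onward. The other 6 chromosomes that hold factors stayed between -0.07 and 0.12 on these days. At d0 the median was -0.48 for chromosome 8 and between -0.35 and -0.25 for the other 6.

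Prrx1, of limb bud mesenchyme, was at 0, 0.227, 1.67, 11.7, 11.7, 3.39 and 3.97 CPM in shLacZ. In shDis3l2 it was at 0, 0.140, 1.26, 20.5, 41.6, 32.1 and 38.6 CPM. No read was counted in either line at d0, and by d12 shDis3l2 still held 92.7% of its peak against 33.9% in shLacZ. Folds were 1.76 (1.43 to 2.18) on d6, 3.55 (3.04 to 4.17) on d8, 9.46 (6.49 to 14.3) on d10 and 9.73 (7.02 to 13.8) on d12.

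Prrx2, its paralog, was at 1.40, 2.01, 2.23, 8.94, 5.62, 3.15 and 4.66 CPM in shLacZ. Across the shDis3l2 libraries it held 0.982, 1.495, 2.61, 20.1, 27.5, 11.7 and 7.40 CPM. Unlike Prrx1 it fell back in shDis3l2 after d8, to 26.9% of its peak. The folds of 2.24 (1.79 to 2.83) on d6, 4.89 (3.92 to 6.15) on d8, 3.70 (2.47 to 5.78) on d10 and 1.59 (1.09 to 2.33) on d12 peaked at d8, whereas those of Prrx1 were highest at d10 and d12.

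**Figure D2:**
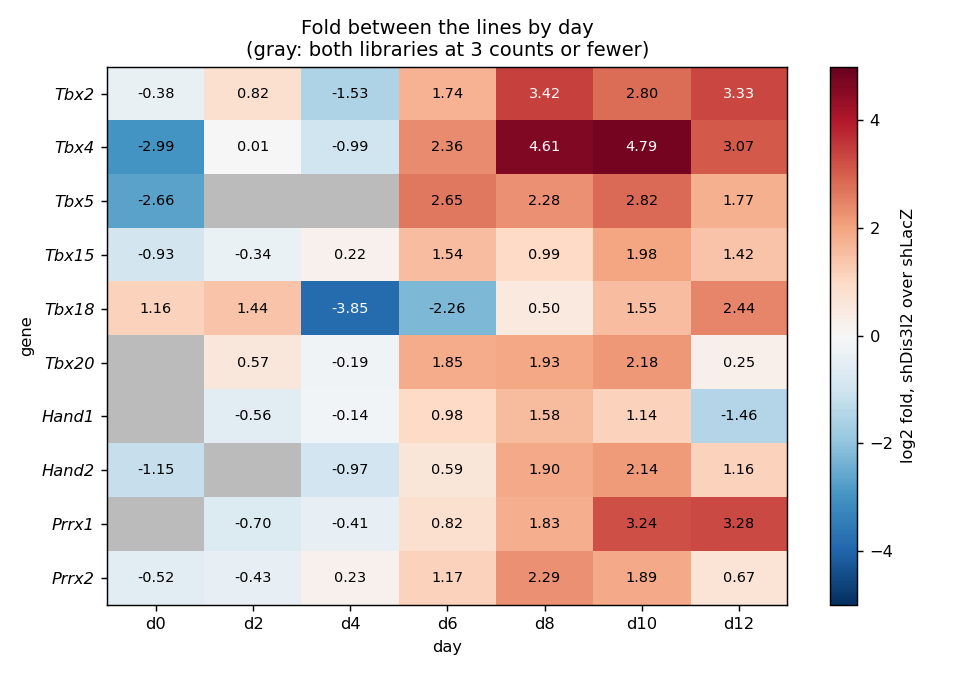
Log2 fold of shDis3l2 over shLacZ (color and number) for each factor (rows) and day (columns), with gray where both libraries held 3 counts or fewer. Of the 40 values from d6 to d12, 38 are above 0, and Tbx18 at d6 and Hand1 at d12 are below.

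Over the 40 member and day values from d6 to d12, 24 were at least 3-fold higher, 37 had an interval above 1 and 1 had an interval below 1. Tbx2, Tbx4 and Tbx5 were at least 3-fold higher on all 4 days, as were 0.926% of the 12639 genes compared on all of these days. Tbx20 and Prrx1 joined them on 3 days or more (3.01% of all genes), Hand2 and Prrx2 on 2 or more (5.22%), and Tbx15 on 1 or more (8.26%). Tbx18, under 1 CPM in both libraries at d6, was not compared on that day. The mean log2 fold over the 4 days, with the SD between days, was 3.71 ± 1.19 for Tbx4, 2.82 ± 0.77 for Tbx2, 2.38 ± 0.47 for Tbx5 and 2.29 ± 1.19 for Prrx1. It was 1.55 ± 0.88 for Tbx20, 1.503 ± 0.73 for Prrx2, 1.48 ± 0.41 for Tbx15, 1.45 ± 0.71 for Hand2, 0.56 ± 1.37 for Hand1 and 0.56 ± 2.04 for Tbx18. Days of 1 series are not replicates, and neighbors in this order from Tbx2 to Prrx1 and from Tbx20 to Hand2 lay closer together than the spread between days. The mean of Tbx18 was -0.07 without d12.

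The median log2 fold of the factors with a fold took the values -0.93 on d0, -0.16 on d2, -0.41 on d4, 1.35 on d6, 1.91 on d8, 2.16 on d10 and 1.59 on d12. Over the factors that reached 1 CPM in either library, as required of all genes, it was -0.45 on d0, -0.34 on d2, -0.30 on d4 and 1.54 on d6, and on later days the same. Over all genes the median was -0.32 at d0 and between -0.07 and 0.05 on the other days. At d0 the median of all genes depended on the scaling, at -0.12 with TMM factors and 0.08 with DESeq2 size factors.

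**Figure D3:**
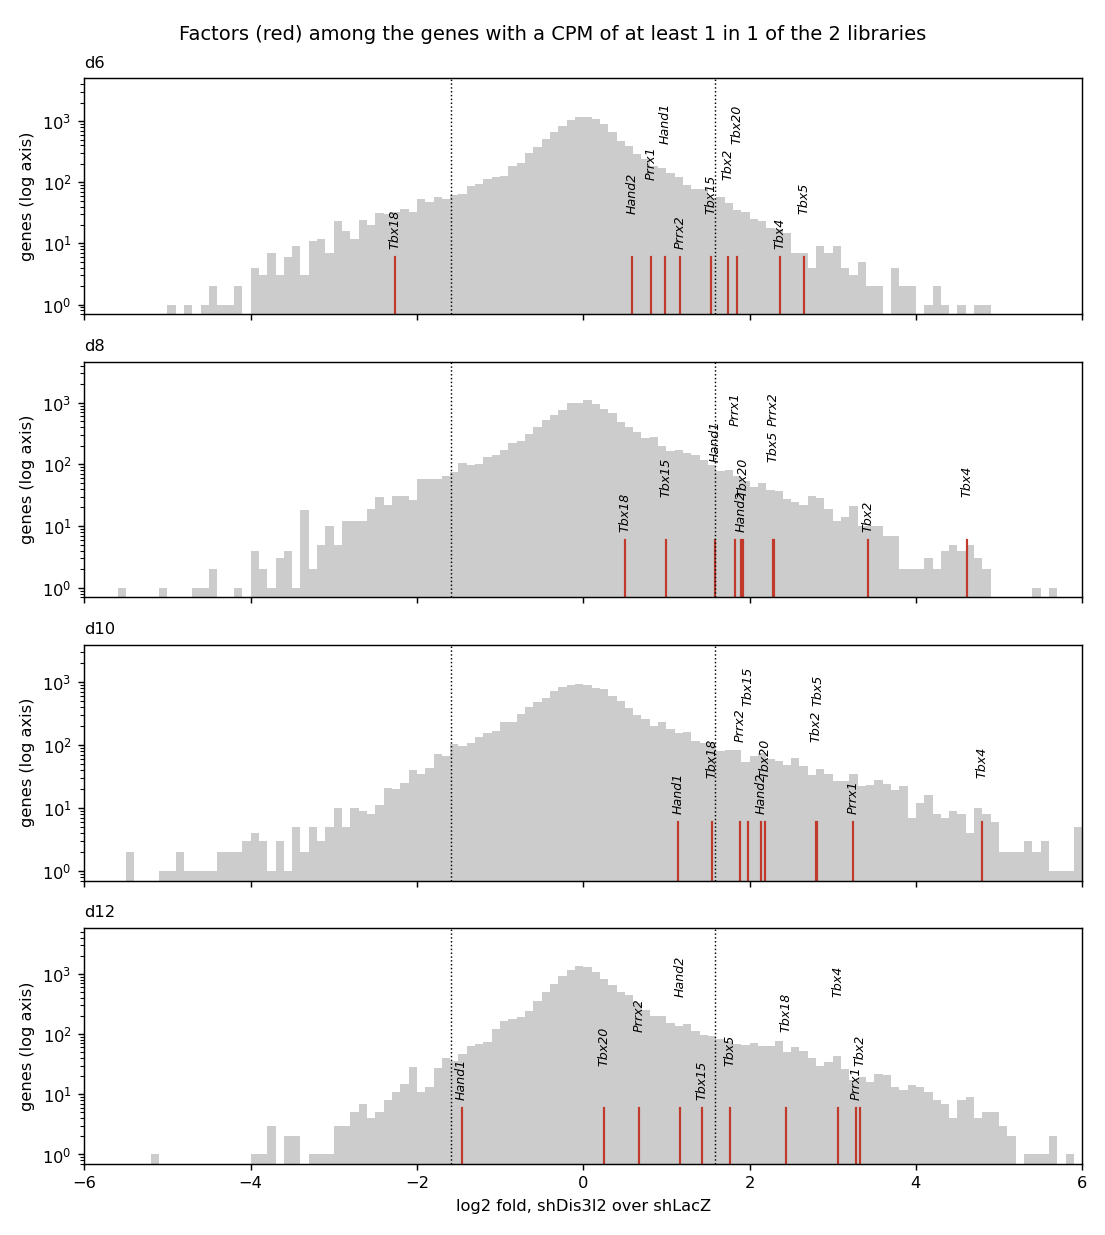
Histograms of the log2 fold of shDis3l2 over shLacZ (horizontal axis) over genes that reached a CPM of 1 in either library (gray, number of genes on a log axis) at d6, d8, d10 and d12, with the factors as red ticks and 3-fold as dotted lines. The ticks lie mostly to the right of 0, Tbx4 is the rightmost factor at d8 and d10, and Hand1 is left of 0 at d12. Tbx18 at d6 is drawn although it was under 1 CPM, and genes beyond the ends of the axis are not drawn.

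Within each line most factors were higher at d6 than at d0, though few rose at every step. In shLacZ, Tbx15 (6.17 CPM at d0 and 1.65 CPM at d6), Tbx5 (0.476 and 0.301) and Tbx18 (0.577 and 0.451) were lower at d6. In shDis3l2, Tbx18 was lower at d6 (1.28 and 0.0942 CPM). From d0 to d2, 3 factors rose at least 3-fold and 1 fell in shLacZ (26.6% and 10.6% of all genes), and 2 rose and 1 fell in shDis3l2 (33.5% and 10.2%). From d2 to d4, 5 rose and 1 fell in shLacZ (6.76% and 6.31%), and 4 rose and 1 fell in shDis3l2 (7.31% and 8.78%), Tbx4 being the 1 that fell in both lines. In shLacZ, Tbx20 and Hand1 alone rose by this rule in each of the 3 steps up to d6. Their ratios were 25.7, 10.3 and 3.90 for Tbx20 and 14.6, 14.3 and 9.62 for Hand1. From d4 to d6 more factors passed 3-fold than in either earlier step. In shLacZ, 7 factors rose at least 3-fold (4.78% of all genes) and in shDis3l2 8 rose (8.38%), and none fell by that much (5.89% and 7.63%). From d6 to d12 the lines then differed in course for some factors. In shLacZ none of the 10 was 3-fold higher at d12 than at d6 (6.33%) and 1, Tbx4, was lower (1.11%), while Tbx5, under 1 CPM, had a ratio of 3.299 (0.951 to 14.4) that holds 1 within its interval. In shDis3l2, 1 was higher (14.4%), Tbx18, and 3 were lower (2.06%), Tbx4, Tbx20 and Hand1. The ratio of Tbx18, 22.9 (3.71 to 941), starts from 1 read at d6, and 1 of 10 factors is near the share of all genes. Tbx4 was thus lower in both lines. Tbx2 and Prrx1 went down in shLacZ and up in shDis3l2, with log2 folds of d12 over d6 of -1.16 and 0.44 for Tbx2 and of -1.55 and 0.91 for Prrx1, all beyond counting error.

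Levels of different genes were compared as RPKM, which divides by the gene length. As the mean over d6 to d12, Hand1 was the highest in both lines, at 37.3 ± 26.8 RPKM (SD between the 4 days) in shLacZ and 67.9 ± 61.3 in shDis3l2, and Hand2 came next, at 10.7 ± 4.84 and 28.3 ± 9.87. On d12 in shDis3l2, however, Hand1 (11.96 RPKM) was below Hand2 (18.6). Tbx20 (3.26 ± 0.958), Prrx2 (2.85 ± 1.25) and Tbx4 (2.04 ± 2.52) followed in shLacZ. In shDis3l2 the third was Tbx4 (20.5 ± 14.05), before Tbx20 (10.3 ± 4.95), Prrx2 (8.49 ± 4.56) and Tbx2 (8.27 ± 1.19). Prrx1, Tbx15, Tbx5 and Tbx18 stood below these in both lines. Except between Hand2 and the third gene in shLacZ, neighbors among the upper ranks lay within the spread between days. That spread does not compare genes within a day. In shLacZ, Hand1 was above Hand2 on each late day, at 75.8 and 17.2 RPKM on d6 and 26.3 and 11.3 on d8. The values were 14.2 and 6.02 RPKM on d10 and 33.0 and 8.31 on d12. The lengths of Tbx20 (11997 bases) and Prrx1 (11066 bases) are those of all annotated exons together, so the RPKM of these genes may be understated.

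Genes near the factors were followed to see whether a difference extended beyond the factor. Within 10000 bases of a factor, a window chosen after the data were seen, 9 genes had more than 10 counts in 1 library. Beside Hand2, Hand2os1, a noncoding RNA gene on the opposite strand with 124 bases between the genes, was at 2.33, 2.13, 2.78 and 1.88 CPM in shLacZ from d6 to d12 and at 6.31, 16.9, 16.7 and 11.8 CPM in shDis3l2. Its folds were 2.71 (1.75 to 4.29), 7.95 (5.63 to 11.6), 6.00 (3.94 to 9.60) and 6.26 (3.85 to 10.7), above those of Hand2 at d6, d8 and d12, where the intervals of the 2 genes do not overlap. The lincRNA 5033428I22Rik, 7485 bases beyond Hand2, had folds of 3.58, 12.6, 8.86 and 4.96. Its opposite-strand neighbor Gm34030 had 1.88 to 4.80, and ENSMUSG00000109908, which lies within Hand2os1, had 4.26 to 16.9. 5033428I22Rik and Gm34030 overlap on opposite strands, and whether the counting used strand is not given in the sources used here. ENSMUSG00000109908 lies on the same strand as Hand2os1, so strand could not separate the reads of that pair. Reads may be shared within both pairs. 2610027K06Rik, a noncoding gene on the opposite strand 328 bases from Tbx2, had 3, 7, 1 and 1 reads in shLacZ against 19, 44, 59 and 18 in shDis3l2, with every interval above 1, and it overlaps Bcas3. Tbx2, Tbx15 and Prrx2 were the only factors with such a coding gene in this window, and the nearest one did not follow the factor. Bcas3 beside Tbx2 had folds of 0.65 to 0.78, Wars2 beside Tbx15 0.79 to 1.05 and Asb6 beside Prrx2 0.76 to 1.02. Ptges, on the other side of Prrx2, had folds of 2.71, 3.06, 1.58 and 1.04, a course like that of Prrx2 over these days. At d0, however, the fold of Ptges was already 2.69 (2.43 to 2.98), and that of Prrx2 was 0.699 (0.422 to 1.13).

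**Figure D4:**
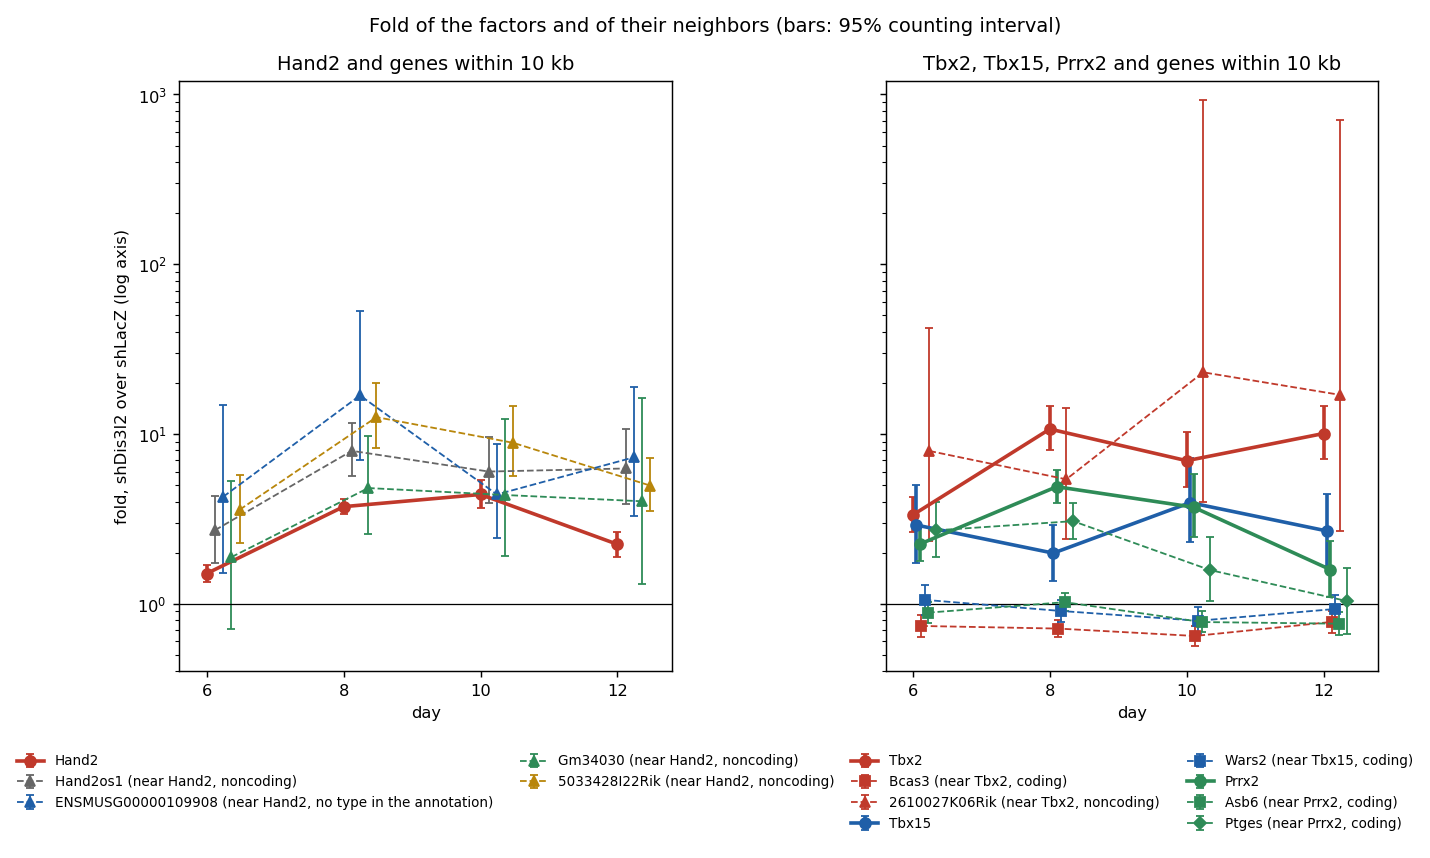
Fold of shDis3l2 over shLacZ (log axis, 1 marked by a line) by day from d6 to d12 for Hand2, Tbx2, Tbx15 and Prrx2 (thick lines) and for genes within 10 kb of them (dashed lines), with 95% counting intervals and points shifted sideways for legibility. All points of the 4 genes beside Hand2 lie above 1, with the interval of Gm34030 at d6 reaching below it, and of the 4 coding genes in the right panel Ptges alone exceeds 2-fold, at d6 and d8.

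Other genes of the pathways were counted on lists written with earlier results of these data known, and some genes are on 2 lists. The shares of all genes higher and lower to set beside them are those above, 2.73% and 4.26% at d6, 5.49% and 3.76% at d8, 8.62% and 3.15% at d10, and 8.17% and 1.42% at d12. Among lateral plate and cardiac progenitor genes, 2 of 13 compared were higher and 1 lower at d6, 3 and 0 of 13 at d8, 6 and 1 of 14 at d10 and 3 and 0 of 13 at d12, with median log2 folds of 0.55, 0.85, 1.17 and 0.90. The 3 most abundant of them, named by a rule on abundance, were Gata4, a cardiac and endoderm factor, with folds of 0.514 to 0.588, Gata6, with 0.723 to 1.80, and the ligand Bmp4, with 1.29 to 2.25. None of the 3 was 3-fold changed, and Gata4 was lower on each day. Among limb field and limb bud genes 1 of 17, 4 of 20, 7 of 21 and 5 of 22 were higher by day and 2, 1, 1 and 0 lower, with medians of 0.51, 0.50, 0.82 and 0.20. The limb bud factor Meis2 had folds of 1.42, 2.47, 3.15 and 2.52, the Hedgehog effector Gli3 1.71 to 2.52, and the ligand Wnt5a 0.844 to 2.52. Among epicardium and mesothelium genes 0 of 7, 1 of 11, 7 of 11 and 6 of 12 were higher and 1, 0, 0 and 1 lower, with medians of -0.11, 0.64, 1.66 and 1.44. The mesothelial factor Bnc1 had folds of 1.18, 2.37, 5.31 and 2.04, Lrrn4 had 0.295 to 1.53, and the keratin gene Krt19 0.906 to 1.41.

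Of the other genes of the same 3 families, the T-box list had a negative median from d8 to d12 and the other 2 lists a positive one. Of the other T-box genes none of 4 or 5 compared was higher from d6 to d12, and 2, 2, 2 and 1 were lower, with medians of 0.06, -1.59, -1.17 and -0.35. The d6 median turned to -1.10 with TMM factors and -1.05 with DESeq2 size factors, under which 4 genes rather than 5 were compared. Tbx3, the closest relative of Tbx2, had folds of 1.05, 0.648, 0.484 and 0.786, Eomes, of early streak and trophoblast, 0.209, 0.157, 0.0619 and 0.271, and Mga 0.857 to 1.08. Of the other Twist-related bHLH genes and E proteins 1 of 9, 2 of 10, 4 of 12 and 4 of 11 were higher and 4, 3, 2 and 0 lower, with medians of 0.20, 0.82, 0.78 and 0.73. The E proteins Tcf3, Tcf4 and Tcf12 had folds of 1.15 to 1.79, below 3 on every late day. Of the other paired-related homeobox genes 1 of 6, 2 of 5, 2 of 7 and 3 of 8 were higher and 0, 0, 1 and 1 lower, with medians of 1.25, 1.58, 1.42 and 0.61. Pitx1, a hindlimb factor on this list, had folds of 2.47, 5.44, 4.29 and 3.61. Of genes that T-box factors are known to control in the sinoatrial node and chambers 0 of 5, 0 of 7, 4 of 8 and 3 of 8 were higher and 0, 1, 1 and 2 lower. The medians were 0.02, -0.50, 0.91 and 0.48, so at d8 the median was below 0. Among these the calcium channel gene Cacna1g had folds of 1.82, 2.76, 4.83 and 7.91, the atrial myosin Myh6 1.02, 2.79, 6.20 and 3.88, and the gap junction gene Gja1 0.708 to 0.873.

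Markers of cell types differed between the lines on the same days and, for some lists, already at d4. At d4, 4 of 8 mesenchyme-like (median log2 fold -1.64), 4 of 10 visceral endoderm-like (-1.40) and 3 of 3 blood-like markers (-3.11) were lower in shDis3l2 and none higher. Of all genes 1.68% were lower at d4 and 0.362% higher. The mesenchyme-like sum at d4 was nevertheless higher in shDis3l2, at 169 CPM against 137 CPM in shLacZ. Visceral endoderm-like sums were 260 and 889 CPM in that order, and blood-like sums were 1.84 and 9.47 CPM. From d6 to d12 the shares of all genes higher were 2.73%, 5.49%, 8.62% and 8.17%, and those lower were 4.26%, 3.76%, 3.15% and 1.42%. Of 10 mesenchyme-like markers, 7, 7, 8 and 7 were higher and none lower from d6 to d12, with median log2 folds of 2.72, 2.61, 3.21 and 2.91. Their summed level lay between 375 and 1938 CPM in shLacZ and between 1190 and 16782 CPM in shDis3l2, and none was at 0 counts. Of the cardiomyocyte-like markers 3 of 7, 5 of 9, 6 of 9 and 4 of 9 were higher and none lower, with summed levels of 28.6 to 78.0 CPM and 51.6 to 242 CPM. Myl2 and Nppa were at 0 counts in at least 1 late shLacZ library, and Nppa in at least 1 late shDis3l2 library. Of 10 visceral endoderm-like markers none was higher and 7, 6, 5 and 3 were lower, with sums of 2833 to 6950 CPM in shLacZ and 559 to 1973 CPM in shDis3l2. Of 8 pluripotent-like markers 7, 6, 1 and 0 were lower and none higher, with sums of 458 to 617 CPM and 74.6 to 433 CPM. The part of these shifts in the levels of the factors was not tested. In bulk EBs, more cells of a type and more RNA per cell cannot be told apart.

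Of the remaining marker lists, the blood-like one alone had a positive median on each late day. The late-day shares of all genes given for the other marker lists are the background here as well. On lists this short, 0 or 1 gene called is not read as a shift. Endothelial-like markers were higher for 2, 1, 2 and 1 of 8 and lower for none, with sums of 103 to 242 CPM in shLacZ and 207 to 429 CPM in shDis3l2, and medians of 0.58, -0.05, -0.10 and -0.72. Blood-like markers were higher for 2 of 6, 0 of 7, 1 of 6 and 5 of 6, with medians of 1.2, 0.28, 0.49 and 2.53 and sums of 13.98 to 811 CPM and 44.4 to 1314 CPM. Neural-like markers were higher for 1, 1, 0 and 0 and lower for 0, 2, 3 and 2 of 2 to 6 compared, with sums of 13.96 to 58.4 CPM and 16.6 to 97.8 CPM. Trophoblast-like markers, of interest since Hand1 is also a trophoblast gene, were higher for 1, 0, 0 and 2 and lower for 1, 1, 0 and 0 of 4 to 6 compared, with sums of 36.3 to 98.9 CPM and 40.02 to 132 CPM. Nephron-like markers were higher for 1, 0, 0 and 1 and lower for 2, 2, 1 and 1 of 5, with sums of 127 to 233 CPM and 48.6 to 207 CPM.

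**Figure D5:**
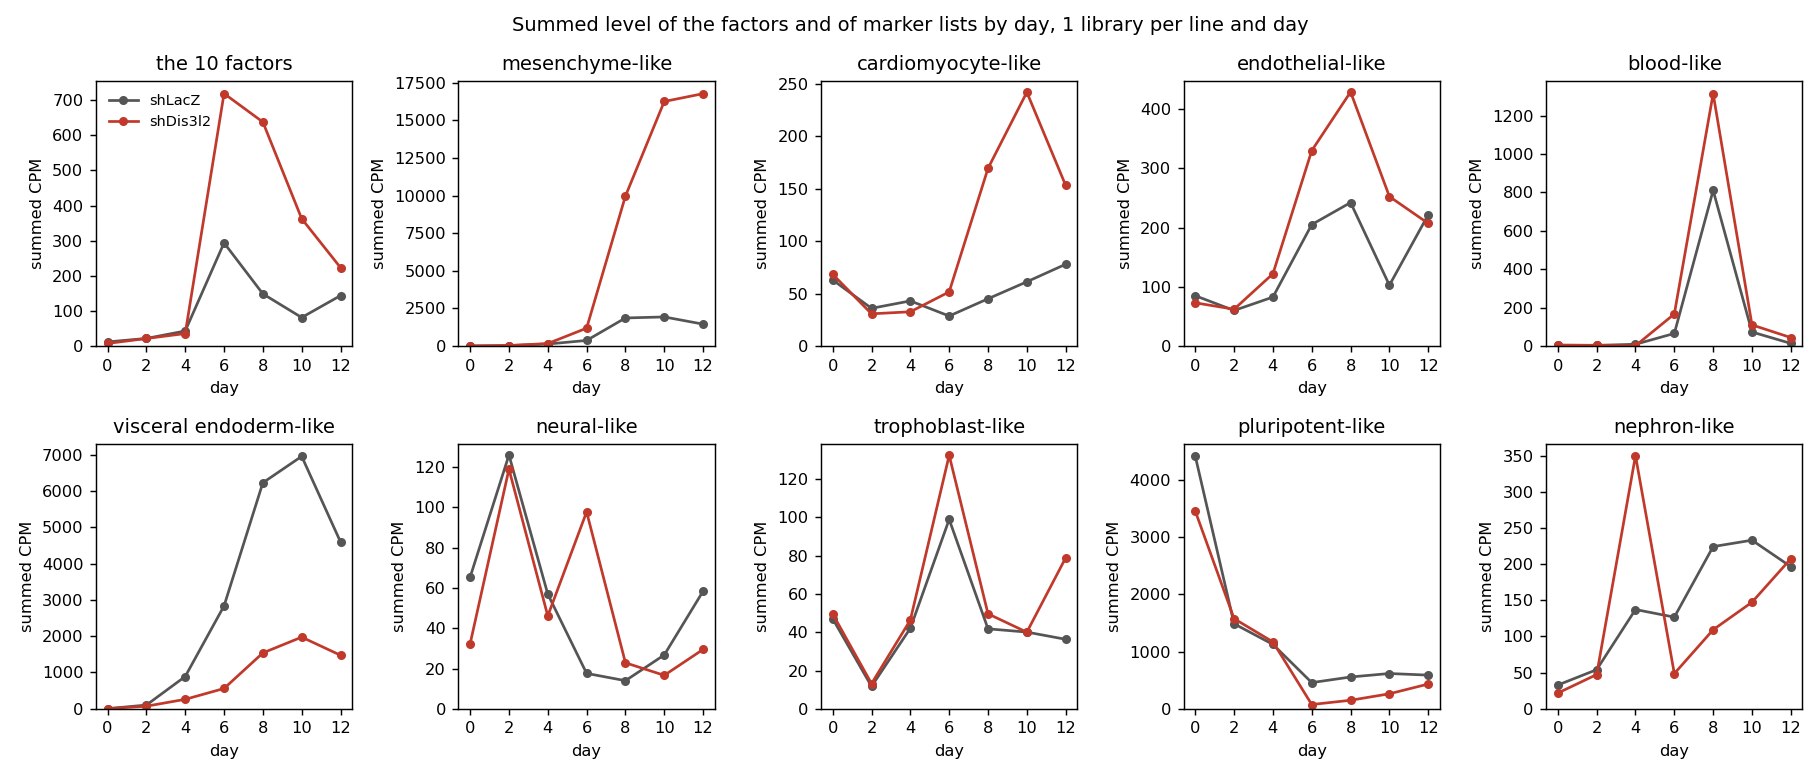
Summed CPM (vertical axes, from 0, each panel with its own scale) of the 10 factors and of the 9 marker lists by day in shLacZ (gray) and shDis3l2 (red), 1 library per point. The sums of the factors on d6 were 294 CPM for shLacZ and 719 CPM for shDis3l2, and on d12 they were 144 and 223 CPM. From d4 onward the mesenchyme-like sum is higher in shDis3l2, most clearly from d6, and the visceral endoderm-like sum is lower.

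Over the 45 pairs, Pearson's r of log2(CPM + 1) over the 14 libraries had a median of 0.71 and ranged from 0.06 to 0.97, with a median of 0.41 within the 7 shLacZ libraries and 0.86 within the 7 shDis3l2 libraries. It was higher within shDis3l2 for 37 of the 45 pairs, while the 10 pairs among Tbx20, Hand1, Hand2, Prrx1 and Prrx2 ranged alike, from 0.86 to 0.99 in each line. Of these 10 pairs 6 were higher within shDis3l2. In shLacZ, Tbx5 and Tbx18 reached at most 0.992 and 1.01 CPM, so counting error weighs on r for their pairs there. The libraries share 2 lines and 7 days, so these values describe a common course and carry no test. The pair most alike was Tbx20 and Hand1, at 0.97. Among 12838 genes that reached a CPM of 5 somewhere, the coding genes outside the factors most like each one were Ackr3 (0.97) and Lgals1 (0.97) for Tbx2, Tuba1a (0.94) and Cyp2j6 (0.93) for Tbx4, and Anxa6 (0.98) and Sparcl1 (0.97) for Tbx5. They were Mmp11 (0.96) and Ptrf (0.94) for Tbx15, Rftn2 (0.88) and Ddr2 (0.86) for Tbx18, and Pmp22 (0.997) and 9430020K01Rik (0.99) for Tbx20. For the others they were Bmp5 (0.98) and Prdm6 (0.98) for Hand1, Capn6 (0.99) and Adgra2 (0.99) for Hand2, Hoxa13 (0.99) and Sdc3 (0.99) for Prrx1, and Apbb1 (0.97) and Mtch1 (0.97) for Prrx2. Rftn2 and Ddr2 followed Tbx18 within shDis3l2 (0.96 and 0.97) but not within shLacZ (0.42 and 0.09), where Tbx18 was near the floor.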

How the data were processed

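PolyA RNA from 14 libraries of mouse cells was sequenced on an Illumina platform by the authors, who used Subread to align reads to GRCm38 and featureCounts to count them. The deposited counts are whole reads per gene without normalization, beside a gene length in bases. The authors also deposited CPM from edgeR, which a check showed to be scaled to the listed coding genes after 0.25 was added to each count, and these were used as an alternative. The knockdown columns carry another name (shm5) in the deposited tables and were assigned by stage and elimination.

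CPM was computed from the counts over totals of all 50686 counted genes. A library at 0 counts was set to 3 counts, and no fold was given where both libraries held 3 or fewer. With 1 library per line and day no test was run. Fold calls and intervals were tested on simulated Poisson counts, which hold counting error only, so the simulation does not cover differences between cultures. The factors, lists and rules were chosen with earlier results of these data known. The genes named are the 10 factors, Dis3l2, the 2 coding genes most like each factor, and the 3 genes of each pathway list with the highest mean CPM over d6 to d12. Some genes that this rule names are not reported here. Genes near the factors, and markers named at 0 counts, fall outside that rule. Promoters came from RefSeq (GRCm38.p6), gene positions came with the deposited counts, and the exons of the promoter genes and the gene types came from GENCODE M21. Totals over all counted genes were replaced by TMM factors (edgeR 4.0.16) or DESeq2 1.42.0 size factors as alternatives, run in R 4.3.3, with the other steps in Python 3.11.15, numpy 2.4.6, scipy 1.17.1 and pandas 2.3.3. The other alternatives were the fold, the minimum CPM and the days. PCR reads are not independent molecules, so the intervals and floors hold counting error alone.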

Additional observations from a re-analysis of the deposited data

Results flagged for a closer look

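Tbx2 and Prrx1 went opposite ways in the lines between d6 and d12, and the difference itself was not tested, since each line and day was 1 library. For Tbx2 the log2 fold of d12 over d6 was -1.16 in shLacZ and 0.44 in shDis3l2 (-1.21 and 0.32 with TMM factors, -1.19 and 0.31 with DESeq2 size factors). For Prrx1 it was -1.55 in shLacZ and 0.91 in shDis3l2 (-1.60 and 0.79, and -1.58 and 0.78).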

How the results depend on the processing

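No paired analysis was possible because no line had replicate libraries that share a number. The libraries pair by day only, which the same-day folds and their mean over d6 to d12 already use. The counts of factors at least 3-fold higher at d6, d8, d10 and d12 were unchanged or within 1.5 times with TMM factors, DESeq2 size factors, the deposited CPM values, no minimum CPM and a fold of at least 2. Where the bound of the interval nearest 1 had to reach 3-fold, the count fell from 4 to 2 at d6, from 8 to 5 at d10 and from 5 to 3 at d12, and with a minimum of 5 CPM it fell from 5 to 3 at d12. Without a minimum CPM 2 factors were at least 3-fold lower at d0, 1 at d4 and 1 at d6, and at 2-fold 1 was higher at d0 and 1 lower at d4 and at d12. The d0 median of the factors moved to -0.54 under DESeq2 scaling. With TMM or DESeq2 scaling 1 epicardium gene was lower at d10, and 0 endothelial-like and 0 nephron-like markers were higher at d12. At d8, 2 limb genes rather than 1 were lower and 1 paired-related gene rather than 2 was higher, and with TMM factors 2 cardiomyocyte-like markers rather than 3 were higher at d6. At d6 the median of other T-box genes turned from 0.06 to -1.10 (TMM) and -1.05 (DESeq2). The mean log2 fold of Tbx18 over d6 to d12 turned from 0.56 to -0.0677 without d12. Its d6 value rests on 7 reads in all, and without d6 the mean was 1.499. The mean of Hand1 was 0.22 without d8 and 1.23 without d12. No other factor's mean changed sign with a day left out or another scaling. Tbx5 and Tbx18 are limited by depth, with 17 reads or fewer per shLacZ library from d6 onward. The floor of the shallowest late library was 0.363 CPM.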
